A study of Caenorhabditis elegans with 14 samples.

Results

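The FMRFamide-like peptide (flp) genes of Caenorhabditis elegans were followed through 13 whole-worm mRNA-seq libraries, in which the number of X chromosomes and the sex of the body go against each other. All genes whose public name in the deposited table starts with flp- and a number were taken as members, which gave 30 of 20376 genes (flp-1 to flp-28, flp-32 and flp-33). The rule reads names alone. Of the 30, 13 lie on the X chromosome, 5 each on chromosomes III and IV, 3 on II, and 2 each on I and V. On the X, flp-28, flp-3 and flp-2 are consecutive protein-coding neighbours.

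The groups were XO hermaphrodites of strain TY2205 and XX males of strain CB5362, both as L3 larvae (24 hours of growth after hatching, 3 libraries each) and as young adults (44 hours at 25 °C, 3 XO hermaphrodite and 4 XX male libraries). The growth temperature of the larvae is not given in the sources used here. The labels name no alleles. As background, TY2205 is known to be mutated in her-1, sdc-3 and xol-1, and CB5362 in tra-2 and xol-1, so that both strains lack the sex determination switch xol-1 and no wild-type XX hermaphrodite or XO male stands beside them. Each group is 1 strain, so strain, sex of the body and X number cannot be told apart. The labels do not state whether replicates were grown as separate cultures, and p-values therefore measure the spread between these libraries, which may be technical. One more young adult TY2205 library is marked by the submitters as reverted and was left out. Libraries are numbered by the sample titles, which skip it.

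Genes of the flp family encode precursor proteins that are cut into several short peptides, each ending in an amidated arginine and phenylalanine. Neurons, and a few other cells, pack these peptides into dense core vesicles and release them onto G protein-coupled receptors, among them the npr, frpr and dmsr receptors. In this worm they are known for tuning locomotion, feeding, sleep, egg laying and mating. Many are made by a handful of neurons each, so that a whole-worm level sums a small set of cells with all the tissue that does not make the peptide.

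Levels are the authors' FPKM, fragments set per length of the transcript and per depth of the library, so that levels of different genes can be set side by side. All 30 flp genes had a mean of at least 1 FPKM and were tested, flp-23 only through its level in the XX male adults. Their summed level was 2578, 2552 and 2478 FPKM in the XO hermaphrodite larvae and 1219, 1983 and 1660 in the XX male larvae. It was 618, 516 and 604 FPKM in the XO hermaphrodite adults, and 1963, 1929, 1868 and 3010 in the XX male adults. XO hermaphrodites thus lay above XX males as larvae and below them as adults, with no overlap at either stage, while XX male larvae and adults overlapped. As a share of each library's summed FPKM, the family took 0.157 to 0.196% in XO hermaphrodite larvae, 0.0945 to 0.163% in XX male larvae, 0.056 to 0.0675% in XO hermaphrodite adults and 0.144 to 0.236% in XX male adults.

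**Figure D1:**
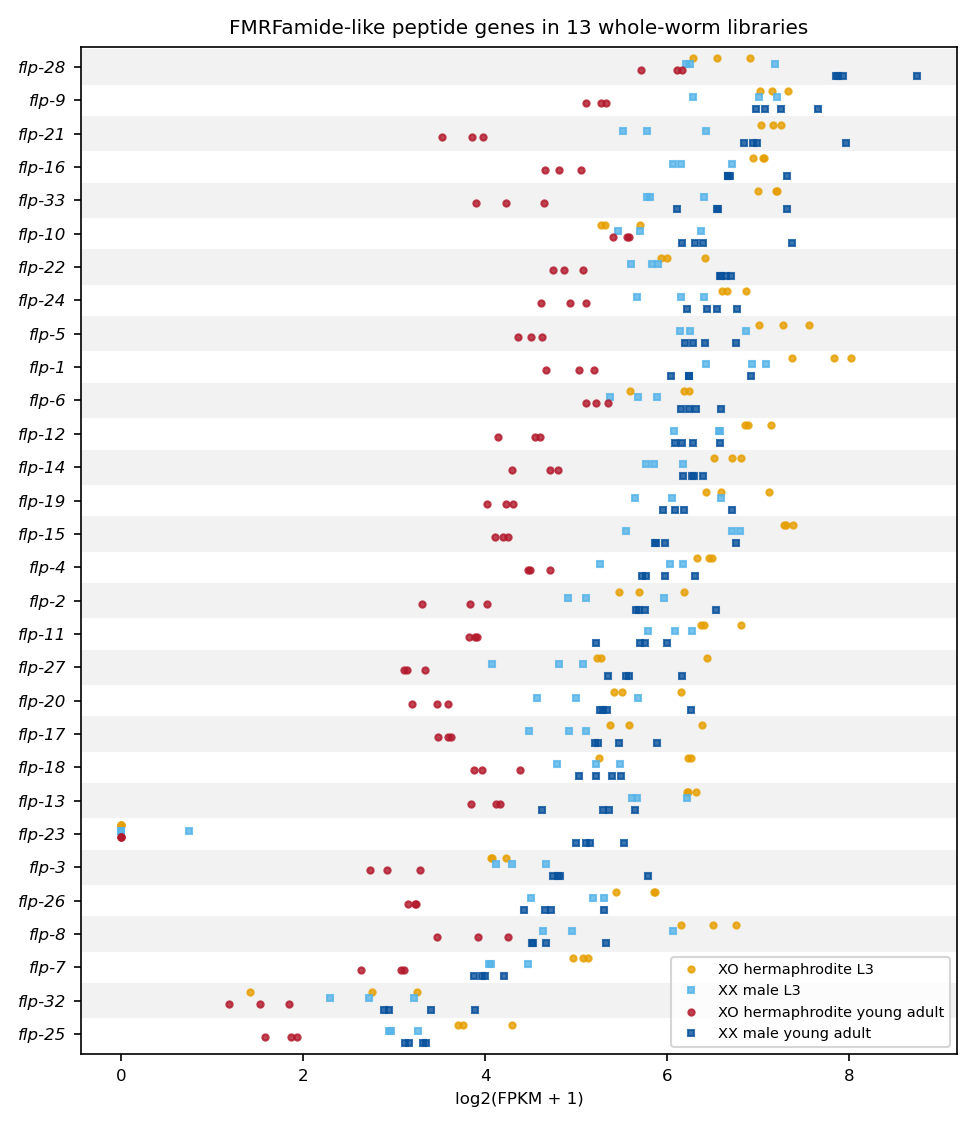
Level of each of the 30 flp genes in every library, in FPKM on a logarithmic axis, with 1 colour per group. The XO hermaphrodite adults lie below all other libraries except for flp-10 and flp-32, where they overlap the larvae, and flp-23, which is listed at 0 in XO hermaphrodites, and flp-28 is the most abundant member in both adult groups.

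Genes known to be mutated in these strains were read in each library. The gene xol-1 was listed at 0 in all 13, her-1, a male-determining signal, spanned 9.83 to 42.7 FPKM in the XO hermaphrodites and 0.401 to 1.69 in the XX males, and sdc-3, a dosage compensation gene, went the other way. The receptor gene tra-2, known to be mutated in CB5362, was at 14.9 to 17.1 FPKM in XX male larvae and 7.25 to 17.9 in XO hermaphrodite larvae, and at 16.8 to 19.5 and 33.6 to 38.5 in the adults, so its level sets the adult groups apart and not the larval ones. Oocyte genes (9) summed to 3473 to 4198 FPKM in XO hermaphrodite adults and to 86.4 to 113 in XX male adults. Depth relative to the first XX male adult library, read from the step of 1 fragment, was 0.224 to 0.919 in the larvae and 0.619 to 1.459 in the adults. The median SD of log2(FPKM + 1) between libraries was 0.36 and 0.35 in XO hermaphrodite and XX male larvae, against 0.18 and 0.20 in the adults, and the test used 1 estimate of spread per gene over all 4 groups. The XX male adult library 4 held the highest level of its group for 27 of the 30 flp genes.

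In young adults every flp gene was lower in XO hermaphrodites than in XX males. All 30 passed the test (limma on log2(FPKM + 1), Benjamini-Hochberg adjusted p under 0.05 over 14628 genes) and for all 30 the libraries of the groups did not overlap. Over all tested genes 33.3% were called lower and 33.9% higher, and 38.1% lay lower and 37.5% higher with no overlap. The log2 differences, XO hermaphrodite minus XX male, ran from -3.40 to -0.88 for the flp genes other than flp-23, which was listed at 0 in XO hermaphrodites. The median of all 30 was -1.82, beside a median of -0.11 over all tested genes. Leaving out flp-23, the mean FPKM of XX male adults was 1.90 to 11.8 times that of XO hermaphrodite adults, with a median of 3.72. Whole worms were sequenced, so fewer cells that make a peptide and less RNA per cell cannot be told apart, and each level is also relative to all other RNA of the library.

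The ligand flp-21, whose peptide acts on the receptor NPR-1 in the control of aggregation, had the largest adult fold difference among the members expressed in all groups. Its level was 142, 151 and 130 FPKM in XO hermaphrodite larvae, 44.8, 85.2 and 53.8 in XX male larvae, 13.5, 10.5 and 14.8 in XO hermaphrodite adults, and 126, 122, 114 and 249 in XX male adults. Larvae and adults thus stood in opposite order, with no overlap at either stage. The adult log2 difference was -3.40 (SE 0.28, limma adjusted p = 5.4e-07), an 11.8-fold difference of the mean FPKM, and the larval one 1.24 (SE 0.30, limma adjusted p = 0.0346). Without XX male adult library 4 the adult difference of flp-21 was -3.14.

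A different course was seen for flp-23. It was listed at 0 in all 3 XO hermaphrodite larval and all 3 XO hermaphrodite adult libraries, at 0.682, 0 and 0 FPKM in the XX male larvae, and at 33.5, 34.6, 31. and 45 in the XX male adults. A signal well above 0 was present only in the XX male adults, and no fold is given against groups at 0. The limma adjusted p was 5.3e-10 between the adult groups, 1.3e-09 between XX male stages and 8.1e-08 for the change of the XO to XX difference with stage. However, flp-23 reached the filter on the mean only through the XX male adults, and its values of 0 add no spread to the shared estimate. These p-values therefore add little to the levels themselves. Its calls are included in the counts over all members.

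The most abundant member in adults was flp-28. It stood at 119, 76.9 and 92.5 FPKM in XO hermaphrodite larvae, 72.6, 144 and 75 in XX male larvae, 70.7, 51.3 and 68.1 in XO hermaphrodite adults, and 234, 243, 231 and 428 in XX male adults. The larval groups overlapped (log2 difference 0.04, SE 0.30, limma adjusted p = 0.961), while the adult groups lay apart (-2.11, SE 0.28, limma adjusted p = 3.1e-05). It ranked 12th and 3rd of 30 by mean level in XO hermaphrodite and XX male larvae and 1st in both adult groups. Its neighbours on the X differed between the adult groups by -2.18 (SE 0.31) for flp-2 and -2.06 (SE 0.26) for flp-3, in a family where 11 members lay at or below -2. Between the XO hermaphrodite stages the differences were -0.58 for flp-28, -1.15 for flp-3 and -2.06 for flp-2.

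**Figure D2:**
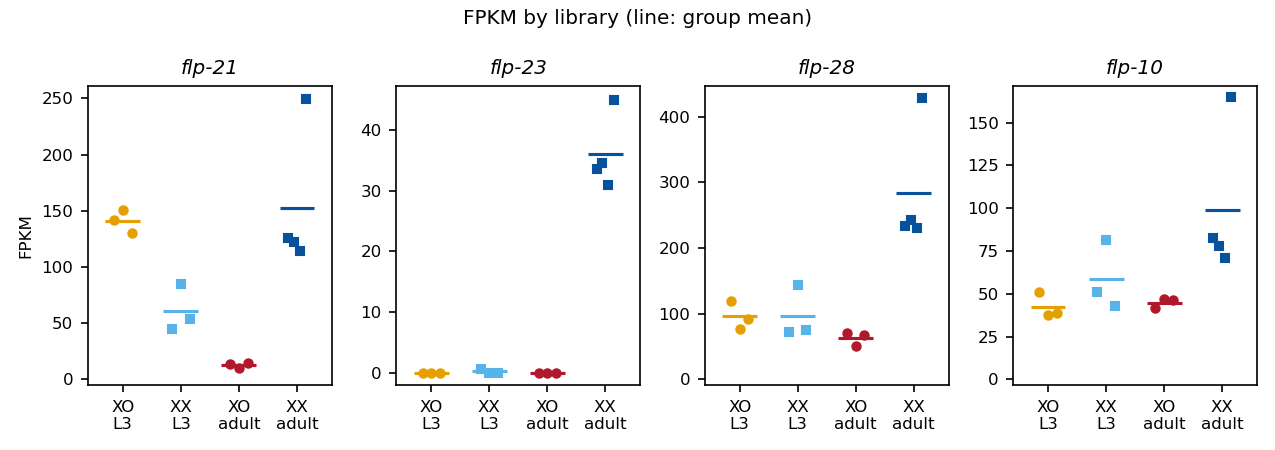
FPKM of flp-21, flp-23, flp-28 and flp-10 in each library, with 1 point per library and 1 column per group. For flp-21 the XO hermaphrodite larvae lie above the XX male larvae and the order turns in adults, flp-23 is near 0 outside the XX male adults, flp-28 is highest in the XX male adults, and flp-10 stays between 37.7 and 50.9 FPKM in the XO hermaphrodites of both stages.

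Several members act in male mating or in how males respond to hermaphrodites. Males without flp-8, flp-10, flp-12 or flp-20 are known to turn repeatedly around a mate, and flp-3 is known for the attraction of males to a pheromone. The adult log2 difference was -2.12 (SE 0.31) for flp-20, -2.06 for flp-3, -1.85 (SE 0.19) for flp-12, -1.04 (SE 0.29, limma adjusted p = 0.00613) for flp-10 and -0.88 (SE 0.33, limma adjusted p = 0.033) for flp-8. Of all 30 members, flp-8 and flp-10 differed least. For flp-8 the adult levels were 18., 14.2 and 10.1 FPKM in XO hermaphrodites and 21.9, 22., 24.5 and 39.1 in XX males. The call of flp-8 was lost without XX male adult library 3 or 4 or without XO hermaphrodite adult library 2 or 3, with a difference of -0.69 without XX male library 4. For flp-20 the levels were 44.5, 70.2 and 41.7 FPKM in XO hermaphrodite larvae, 22.7, 50.1 and 31. in XX male larvae, 8.20, 11.1 and 10.1 in XO hermaphrodite adults, and 37.4, 39.5, 38.4 and 75.6 in XX male adults. For flp-3 they were 17.8, 15.7 and 15.9, then 18.6, 24.4 and 16.4, then 6.56, 5.67 and 8.73, and 27.3, 26.8, 25.8 and 54.1 FPKM in the same order of groups. Both genes were lowest in every XO hermaphrodite adult library, and their larval groups overlapped.

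Both known ligands of the receptor EGL-6, through which egg laying is inhibited, are members. Levels of flp-10 were 50.9, 37.7 and 38.9 FPKM in XO hermaphrodite larvae, 51.2, 81.5 and 42.9 in XX male larvae, 41.4, 46.7 and 46.2 in XO hermaphrodite adults and 82.8, 77.9, 70.9 and 165 in XX male adults. XO hermaphrodite larvae and adults overlapped (log2 difference 0.08, SE 0.31, limma adjusted p = 0.826), and flp-10 was 25th of 30 by mean level in those larvae and 2nd in those adults. The other ligand, flp-17, made by the BAG sensory neurons, was at 82.6, 46.8 and 40.3 FPKM in XO hermaphrodite larvae, 21.4, 33.5 and 29.4 in XX male larvae, 11.1, 10.2 and 11.3 in XO hermaphrodite adults and 35.9, 36.7, 43.4 and 58.4 in XX male adults. No XO hermaphrodite adult value of flp-17 came near any other group (adult difference -1.88, SE 0.26, and XO hermaphrodite stage difference -2.21, SE 0.27).

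Peptides that promote sleep are encoded by flp-11, made by the RIS neuron, and by flp-13 and flp-24, which act from the ALA neuron after stress, while flp-2 is known to promote arousal. Adult log2 differences were -1.79 (SE 0.20) for flp-11, -1.19 (SE 0.23) for flp-13, -1.61 (SE 0.20) for flp-24 and -2.18 for flp-2, all called lower in XO hermaphrodites. Levels of flp-13 were 73.9, 78.7 and 73.2 FPKM in XO hermaphrodite larvae, 48, 73.6 and 49.7 in XX male larvae, 16.9, 13.4 and 16.4 in XO hermaphrodite adults and 38.2, 40.1, 23.7 and 49 in XX male adults. It was the sole member called lower in XX male adults than in XX male larvae (-0.60, SE 0.23, limma adjusted p = 0.0455), and that call was lost in most repeats that left out 1 library. Levels of flp-2 were 71.8, 50.6 and 43.5 FPKM, then 29, 61.4 and 33.6, then 13.3, 8.92 and 15.2, and 50.6, 52.9, 49.3 and 91.7 in the same order of groups, with overlap between the larval groups and none between the adult groups.

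Among members known from locomotion, feeding and fat, flp-1, whose loss gives uncoordinated movement, was the most abundant in XO hermaphrodite larvae. Its level was 165, 258 and 227 FPKM there, 84.7, 121 and 135 in XX male larvae, 31.7, 24.4 and 35.6 in XO hermaphrodite adults and 74.8, 64.8, 74.4 and 120 in XX male adults. It ranked 1st and 2nd in the larval groups but 5th and 10th in the adult groups, and the adult difference was -1.39 (SE 0.25). For flp-18, a ligand of NPR receptors in feeding and locomotion, the adult difference was -1.21 (SE 0.26). For flp-7, which signals from neurons to the intestine in fat loss through the receptor NPR-22, levels were 32.8, 30.3 and 34.1 FPKM in XO hermaphrodite larvae, 15.5, 15.7 and 21.2 in XX male larvae, 7.44, 5.22 and 7.62 in XO hermaphrodite adults, and 15., 14.6, 13.7 and 17.5 in XX male adults. The values of flp-7 in XX male larvae and adults overlapped, and those of XO hermaphrodites lay above them in larvae and below them in adults.

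The other members chosen for their level or their change were also lower in XO hermaphrodite adults. Levels of flp-9 were 159, 129 and 141 FPKM in XO hermaphrodite larvae, 77.1, 147 and 128 in XX male larvae, 39.1, 33.5 and 37.7 in XO hermaphrodite adults and 151, 125, 134 and 201 in XX male adults, so that only the XO hermaphrodite adults stood apart. The ligand of NPR-3, flp-15, was at 166, 155 and 157 FPKM, then 45.9 to 110 in the 3 XX male larval libraries, then 18.1, 17.4 and 16.2, and 57.3, 61.9, 57.8 and 107, and flp-5 at 128, 188 and 154, then 69.8, 116 and 75, then 23.6, 19.5 and 21.7, and 72.5, 76.8, 84.1 and 107 in the same order. In both, the order of XO hermaphrodites and XX males turned between the stages with no overlap at either. The same held for flp-33, with 127, 145 and 147 FPKM in XO hermaphrodite larvae, 53.8, 83.6 and 55.3 in XX male larvae, 17.7, 13.9 and 24.1 in XO hermaphrodite adults and 92.3, 93, 68 and 158 in XX male adults. For flp-27 they were 85.8, 37.6 and 36.5 FPKM, then 15.9, 32.7 and 27.1, then 7.84, 7.65 and 9.11, and 47, 45.7, 39.7 and 70.6. Adult differences were -2.46 (SE 0.32) for flp-27, -2.38 (SE 0.27) for flp-33, -2.0 (SE 0.22) for flp-9, -1.93 (SE 0.29) for flp-15 and -1.92 (SE 0.21) for flp-5.

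Exons of flp-8, flp-11, flp-16, flp-19 and flp-33 overlap a gene on the opposite strand, and flp-17 holds a piRNA gene on its own strand. The libraries were made strand-specific, but no source used here names the strand setting of the quantification, and the levels of these 6 genes are less certain than the rest.

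**Figure D3:**
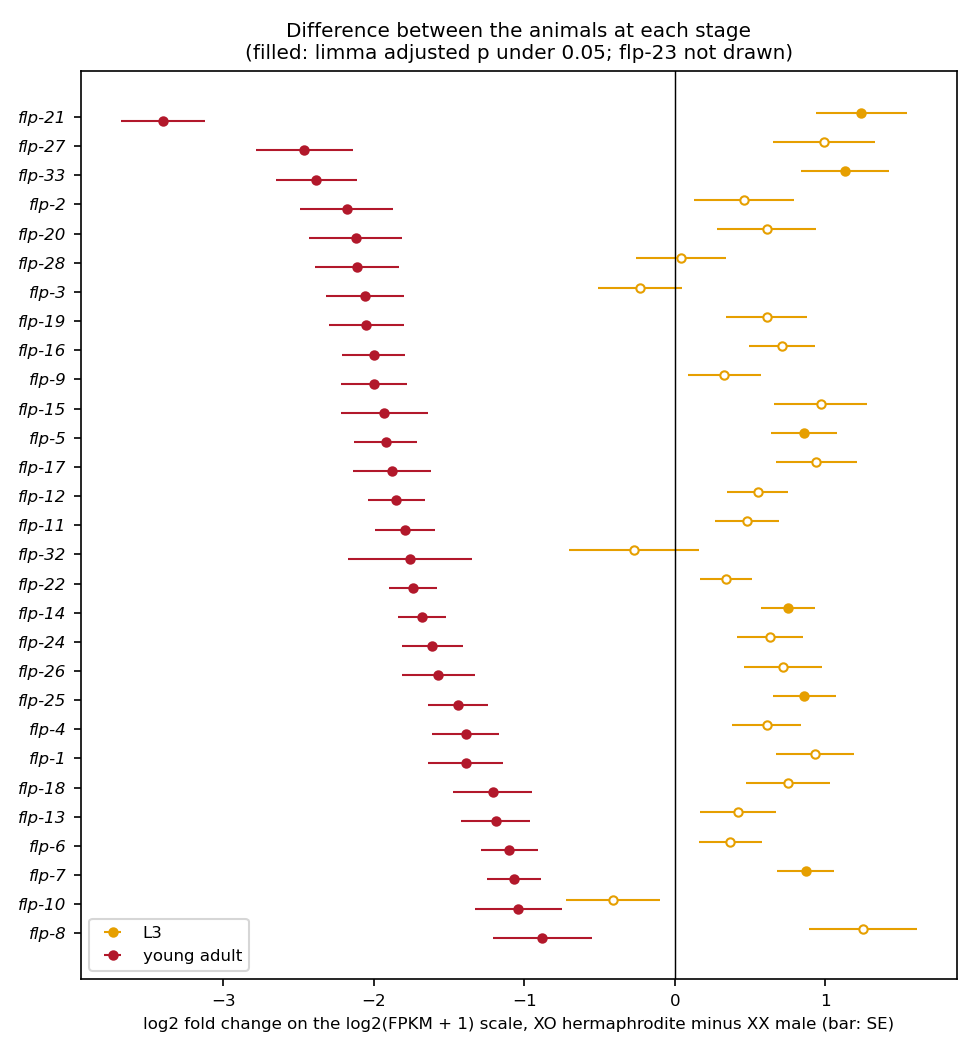
Log2 difference of XO hermaphrodites minus XX males for 29 flp genes (flp-23 is not drawn) at L3 and in young adults, with bars of 1 SE, filled where the limma adjusted p was under 0.05. The adult differences lie between -3.40 and -0.88 and all are filled, whereas the larval ones lie between -0.41 and 1.25 and 6 are filled.

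In L3 larvae the family leaned the other way, by less. Of the 30 members 26 had a positive log2 difference, with a median of 0.62 beside -0.25 over all tested genes, and for 18 the XO hermaphrodite libraries all lay above the XX male libraries with no overlap, which 4.91% of all tested genes did. Called higher in XO hermaphrodites were 6 members (1.26% of all tested genes), and 0 were called lower (4.31% of all tested genes). At an unadjusted p under 0.05 in limma, 19 were higher and 0 lower, beside 855 and 3191 of the 14628 tested genes. The 6 were flp-5 (0.86, SE 0.22), flp-7 (0.87, SE 0.19), flp-14 (0.75, SE 0.18), flp-21 (1.24, SE 0.30), flp-25 (0.86, SE 0.21) and flp-33 (1.13, SE 0.29), with limma adjusted p between 0.0249 and 0.0452.

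For flp-14 the levels behind this call were 90.4 to 111 FPKM in the 3 libraries of XO hermaphrodite larvae and 53.6, 56.9 and 71 in XX male larvae, with 25.2, 18.6 and 26.9 in XO hermaphrodite adults and 77.5, 76, 71.2 and 83 in XX male adults. For flp-25, one of the least abundant members, they were 18.6, 12.5 and 12, then 6.80, 8.62 and 6.71, then 2.66, 2.0 and 2.81, and 7.69, 8.98, 7.97 and 9.23 FPKM. Both showed no overlap between the larval groups. Negative larval differences were seen for flp-3 (-0.23, SE 0.28), flp-10 (-0.41, SE 0.31), flp-23 and flp-32 (-0.27, SE 0.43), none of which was called.

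The larval calls, those of the flp genes and those of all tested genes, changed when single libraries were left out. The flp calls fell from 6 to 0 without XO hermaphrodite larval library 2, without XO hermaphrodite larval library 3 or without XX male larval library 1, where 16, 15 and 11 members still had an unadjusted p under 0.05 in limma. Over all tested genes the calls fell from 185 higher and 631 lower to 68 and 182, 71 and 203, and 83 and 208. The median flp difference was 0.63 and 0.65 without these XO hermaphrodite libraries, against 0.62 with all libraries. The flp calls rose to 10 without XX male larval library 2 and to 9 without XO hermaphrodite larval library 1, and fell to 3 without XX male larval library 3. Over all tested genes the calls were then 351 higher and 1600 lower, 726 and 3708, and 158 and 329. Leaving out an adult library, which changes the shared estimate of spread and which genes pass the filter, gave 1 flp call (without XO hermaphrodite adult library 1 or XX male adult library 1 or 2) to 7. Over all tested genes these runs gave 117 to 191 calls higher and 336 to 557 lower. XX male larval library 1 held the lowest level of its group for 26 of 30 members, and its 30 major sperm protein genes summed to 1749 FPKM, against 14.6 and 68.9 in the other XX male larvae and 4.34 to 26.1 in the XO hermaphrodite larvae. Without it the median flp difference was 0.41 in place of 0.62. In the same larval comparison 3 of 9 oocyte genes were lower in XO hermaphrodites (median -0.55), and the sperm genes had a median of -2.33, with 0 of 30 called by limma and 14 lower at an unadjusted p under 0.05. Over all tested genes 4.31% were called lower, 3191 of 14628 were lower at an unadjusted p under 0.05 in limma, and the median was -0.25. The part of these genes' tissues in the larval flp difference was not tested. Scaling every library to a common sum left 1 flp call, flp-21, and scaling to the upper quartile gave 15. Over all tested genes these gave 146 higher and 1775 lower, and 404 and 465. The flp median minus the median of all tested genes was 0.82 and 0.92, against 0.88 without scaling.

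The difference between XO hermaphrodites and XX males itself changed with stage for 29 of 30 members, all toward lower in XO hermaphrodite adults, beside 23.9% of all tested genes called in that direction and 32.6% in the other. The log2 change, adult difference minus larval difference, had a median of -2.31 beside 0.07 over all tested genes. Next to flp-23, it was strongest for flp-21 (-4.64, SE 0.41, limma adjusted p = 1.9e-06), flp-33 (-3.51, SE 0.40) and flp-27 (-3.45, SE 0.47), followed by flp-15 (-2.90), flp-17 (-2.82), flp-5 (-2.78) and flp-20 (-2.73). The member not called was flp-10 (-0.63, SE 0.42, limma adjusted p = 0.223). The 6 members called higher in XO hermaphrodite larvae were called lower in XO hermaphrodite adults, as all 30 members were.

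Within XO hermaphrodites, flp genes were lower in adults than in larvae. The test called 26 of 30 lower and 0 higher, with 27 lower and 0 higher at an unadjusted p under 0.05 in limma, beside 28.5% and 33.7% of all tested genes. For 27 members the adult libraries all lay below the larval ones (31.1% of all tested genes, with 39.2% all above). The median log2 difference, adult minus larva, was -2.15 beside 0.13 over all tested genes. Leaving out flp-23, the larval mean was 0.95 to 10.91 times the adult mean, with a median of 4.83. The strongest were flp-21 (-3.36, SE 0.30), flp-15 (-3.14, SE 0.31), flp-33 (-2.88, SE 0.29) and flp-5 (-2.79, SE 0.22). Not called were flp-10, flp-23, flp-28 (-0.58, SE 0.30, limma adjusted p = 0.113) and flp-32 (-0.96, SE 0.43, limma adjusted p = 0.0728). With the same change of stage all 9 oocyte genes (median 6.34) and 28 of 30 sperm genes were higher, while 5 of 6 intestinal, 4 of 6 body muscle and 10 of 21 pan-neuronal genes were lower, and 4 pan-neuronal genes were higher. Their part in the flp change was not tested.

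Within XX males fewer members were called between the stages. The test called 8 members higher in adults and 1 lower, beside 21.7% and 28.5% of all tested genes, and the median log2 difference was 0.41 beside -0.21. That median was 0.21 without XX male larval library 1 and 0.18 with quantile normalization. For 9 members the adult libraries all lay above the larval ones (23.9% of all tested genes). Apart from flp-23, the rises were flp-28 (1.56, SE 0.28, limma adjusted p = 5.7e-04), flp-21 (1.28, SE 0.28, limma adjusted p = 0.00211), flp-27 (1.0, SE 0.32), flp-22 (0.85, SE 0.16, limma adjusted p = 5.9e-04), flp-3 (0.68, SE 0.26), flp-6 (0.68, SE 0.19) and flp-16 (0.53, SE 0.21). The calls of flp-21, flp-22, flp-23 and flp-28 held in every alternative run, while the other 4 were lost in at least 1. The 8 calls became 4 without XX male larval library 1, 13 without XX male larval library 2 and 5 without XX male adult library 4. Over all tested genes the calls higher, 3174 with all libraries, were then 3064, 3081 and 2884. The share of members called higher, 8 of 30, lies near that of all tested genes.

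The other members were also lower in XO hermaphrodite adults. For flp-4, flp-6, flp-11, flp-12, flp-16, flp-18, flp-19, flp-22, flp-24 and flp-26 the mean level lay between 8.25 and 36.5 FPKM in XO hermaphrodite adults and between 27.2 and 116 in XX male adults. The largest mean among them was that of flp-16, with 116 ± 28.3 FPKM (SD, n = 4) in XX male adults against 27.9 ± 4.04 (SD, n = 3) in XO hermaphrodite adults. The smallest SD among them in XX male adults was that of flp-22, at 98.1 ± 3.92 FPKM (SD, n = 4) against 28.9 ± 3.59 (SD, n = 3), and flp-6 kept a larger share of its larval level in XO hermaphrodites than most, with 64.6 ± 15. FPKM (SD, n = 3) in larvae and 36.5 ± 3.23 (SD, n = 3) in adults. Low in every group, flp-32 was at 8.53, 1.68 and 5.75 FPKM in XO hermaphrodite larvae, 3.91, 8.33 and 5.62 in XX male larvae, 2.59, 1.28 and 1.89 in XO hermaphrodite adults and 6.68, 13.8, 9.58 and 6.40 in XX male adults, with overlap in larvae and none in adults.

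The X chromosome is present in 1 copy in XO hermaphrodites and 2 in XX males, and members on and off it had like medians in adults. The median adult log2 difference was -1.85 for the 13 members on the X and -1.74 for the 17 on autosomes, whereas over all tested genes it was -0.60 for 1985 on the X and 0.03 for 12643 on autosomes. In larvae the medians were 0.61 and 0.71 for the members, and -0.24 and -0.25 for all tested genes. In XX males, the stage difference had a median of 0.12 for members on the X and 0.53 for those on autosomes.

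Genes that make and release these peptides were read beside them. In a list of 20 genes for peptide processing and dense core vesicles, 8 were lower and 2 higher in XO hermaphrodite adults, with a median of -0.42. With 33.3% of all tested genes lower, 8 of 20 is near the background. Lower were the prohormone convertase egl-3 (-1.47), the carboxypeptidase egl-21 (-1.80), the convertase chaperone sbt-1 (-1.51), the amidating enzymes pghm-1 (-1.99) and pgal-1 (-0.99), and the dense core vesicle protein ida-1 (-1.72), as well as kpc-1 (-0.80) and rund-1 (-0.46), and higher were rab-10 (1.05) and tpp-2 (1.0). In larvae 1 gene of this list was called, pghm-1, which was higher in XO hermaphrodites (0.70, limma adjusted p = 0.0395) against a list median of -0.27. Over all tested genes 1.26% were called higher and 4.31% lower in larvae, with a median of -0.25.

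Pan-neuronal genes (21), a list of synaptic and other genes used by all neurons, moved in both directions. In adults 12 were lower in XO hermaphrodites and 3 higher, beside 33.3% and 33.9% of all tested genes, with a median of -0.97. The synaptic vesicle gene rab-3 (-3.06) and unc-18 (-2.06) had the largest falls, and maco-1 (1.90), unc-26 (1.6) and unc-57 (0.87) were higher. In larvae 0 were called by limma (1 higher and 6 lower at an unadjusted p under 0.05), and the median was -0.46. Of the 14628 tested genes 1.26% were called higher and 4.31% lower in larvae (855 and 3191 at an unadjusted p under 0.05), with a median of -0.25. XO hermaphrodite larval library 1 stood apart, with a pan-neuronal mean log2(FPKM + 1) of 4.42 against 3.45 and 3.51 in the other XO hermaphrodite larvae. XX male larvae were at 4.19 to 4.29. Its body muscle mean was 9.20 against 8.36 and 8.31 in the other XO hermaphrodite larvae. The mean log2(FPKM + 1) of the flp genes exceeded that of the pan-neuronal genes by 1.59, 2.42 and 2.37 in XO hermaphrodite larvae, 0.83, 1.34 and 1.18 in XX male larvae, 0.59, 0.45 and 0.56 in XO hermaphrodite adults, and 1.68, 1.74, 1.54 and 2.09 in XX male adults. The groups did not overlap at either stage on that scale. With each library centred on the pan-neuronal genes, an alternative chosen after seeing the data, 23 of the 30 flp genes were still called lower in XO hermaphrodite adults, with a median of -1.17, and the calls of flp-1, flp-6, flp-7, flp-8, flp-10, flp-13 and flp-18 were lost. In that run 2856 of 14628 tested genes were called lower and 6735 higher, with a median of 0.54.

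**Figure D4:**
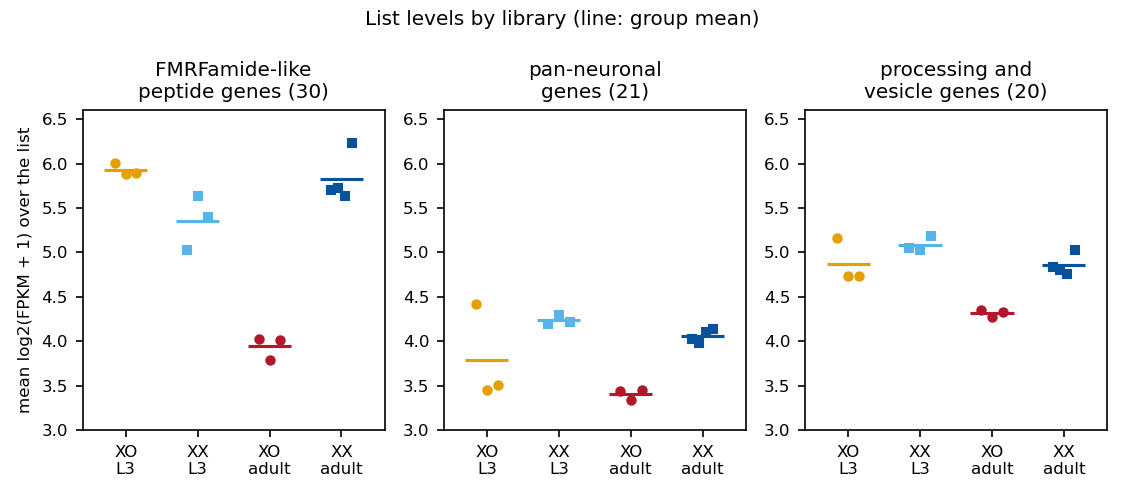
Mean log2(FPKM + 1) of the 30 flp genes, 21 pan-neuronal genes and 20 genes for peptide processing and dense core vesicles in each library. The flp mean spans 3.79 to 4.03 in XO hermaphrodite adults and 5.64 to 6.23 in XX male adults, while the pan-neuronal mean spans 3.34 to 3.45 and 3.98 to 4.14.

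Receptor genes of the npr, frpr and dmsr families with egl-6 numbered 80 in the table, of which 46 reached a mean of 1 FPKM. In adults 29 were lower in XO hermaphrodites and 0 higher (0 at an unadjusted p under 0.05 in limma), with a median of -0.72. Over all tested genes 33.3% were lower and 33.9% higher. The largest falls were dmsr-2 (-3.57, limma adjusted p = 2.9e-08) and npr-23 (-1.59). The level of dmsr-2 was 2.2 ± 0.62 FPKM in XO hermaphrodite larvae and 3.03 ± 0.949 in XX male larvae (SD, n = 3 each), and 1.74 ± 0.207 (SD, n = 3) and 31.7 ± 3.80 (SD, n = 4) in the adults. Like flp-23, it was thus raised in XX male adults alone among these groups. In larvae 0 receptors were called (1 higher and 1 lower at an unadjusted p under 0.05 in limma), beside 1.26% of all tested genes called higher and 4.31% lower.

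The other peptide families are given for comparison, with no test against the flp genes. Of 69 tested nlp genes 50 were lower and 1 higher in XO hermaphrodite adults (median -1.34), and of 32 tested insulin-like genes 20 were lower and 1 higher (median -1.08). The shares over all tested genes were 33.3% lower and 33.9% higher. In larvae 7 nlp genes were higher and 0 lower (24 and 0 at an unadjusted p under 0.05 in limma), with a median of 0.50. The larval shares over all tested genes were 1.26% higher and 4.31% lower.

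Markers of other tissues moved with the adult comparison, in which 33.3% of all tested genes were called lower and 33.9% higher. All 9 oocyte genes were higher in XO hermaphrodite adults (median 5.44) and all 30 major sperm protein genes lower (median -5.28). Of 6 body muscle genes 4 were lower (median -1.32) and of 6 intestinal genes 4 were lower (median -0.84), with 0 higher in either. The 9 genes of male ciliated neurons summed to 2.59 to 3.09 FPKM in XO hermaphrodite adults and 178 to 250 in XX male adults, and to 4.73 to 19 in the larvae. The 6 that were tested, all lower in XO hermaphrodite adults, thus reached the filter on the mean largely through the XX male adults. That count was therefore largely set by the filter. The part of oocyte RNA, of male neurons and of the other tissues in the flp differences was not tested.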

How the data were processed

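Per the labels' protocols, poly(A)-selected RNA of whole worms was made into strand-specific libraries with dUTP. FPKM values per gene and library were deposited by the authors. The submitters' processing notes list Cufflinks 2.2.0. No source used here names the genome build or strand setting. No counts were used here, so depth is known only relative to 1 library, from the step that 1 fragment makes in the FPKM of low genes.

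Of 20417 rows, 6 repeats were removed. Of the 20411 genes left, 22 were empty in every library and 13 held values in only part of the libraries, which left 20376. The 14628 genes whose mean over the libraries reached 1 FPKM were compared on the log2(FPKM + 1) scale, computed from the authors' deposited FPKM, so the fold change of low genes is understated. One limma model (3.58.1 in R 4.3.3, variance trend) held the 4 groups of 13 libraries, with 5 comparisons and Benjamini-Hochberg adjustment over all tested genes within each. The calling threshold was an adjusted p of 0.05. The script was tested on simulated data. Descriptive values used Python 3.11.15 with pandas 2.3.3.

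Values by library are given for members called at L3 or in the interaction (at most 8 by size of change in each), for the largest changes in the other comparisons, for members at 0 in a group, and for the 3 most abundant of each group. From the other lists at most 2 genes per comparison and direction were to be named, and the further genes named from the processing and pan-neuronal lists were chosen after their values were seen, as was flp-32 among the members given by library. The members and lists were chosen with earlier results of these data known. Gene names and neighbours came from the Ensembl and RefSeq annotations by gene ID, and all 30 members matched under their own symbol. Alternatives were the pseudocount, the filter, scaling, a fit of the compared groups, the replicate number as a block, no variance trend and leaving out each library. Sequences were not used here.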

Additional observations from a re-analysis of the deposited data

Results flagged for a closer look

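In XX male young adults, library 4 stood far above the other 3 libraries of its group for 9 of the 30 flp genes. Its levels there were 91.7 FPKM for flp-2, 54.1 for flp-3, 39.1 for flp-8, 165 for flp-10, 107 for flp-15, 158 for flp-16, 75.6 for flp-20, 249 for flp-21 and 428 for flp-28. The gap to the nearest library was tested in this group of 4 for 30 genes, and chance flags about 1 in 20 groups. Library 4 also held the highest level of the group for 27 of the 30 genes, so the flags are not independent of each other. It stood apart in other tissues too: its 6 intestinal genes summed to 756 FPKM against 1473 to 1707 in the other 3 libraries, its 6 body muscle genes to 6581 against 8244 to 9059, and its 30 sperm genes to 45852 against 31155 to 31267. Their part in the flp levels was not tested.

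The difference between XO hermaphrodites and XX males changed from L3 to young adult for 29 members, by the limma interaction term. On the log2 scale, adult difference minus larval difference, the change was -2.32 for flp-1, -2.64 for flp-2, -1.82 for flp-3, -1.99 for flp-4, -2.78 for flp-5, -1.46 for flp-6, -1.94 for flp-7, -2.13 for flp-8, -2.33 for flp-9, -2.28 for flp-11, -2.40 for flp-12 and -1.60 for flp-13. It was -2.43 for flp-14, -2.90 for flp-15, -2.71 for flp-16, -2.82 for flp-17, -1.96 for flp-18, -2.67 for flp-19, -2.73 for flp-20, -4.64 for flp-21, -2.08 for flp-22 and -2.24 for flp-24. It was -2.30 for flp-25, -2.28 for flp-26, -3.45 for flp-27, -2.15 for flp-28, -1.49 for flp-32 and -3.51 for flp-33. For flp-23, listed at 0 in most groups, the adjusted p of the limma interaction was 8.1e-08 and no size is given.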

How the results depend on the processing

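The adult difference held best: all 30 members stayed lower in XO hermaphrodites in every alternative run, and called were 28 (scaled to a common sum), 23 (centred on pan-neuronal genes, chosen after seeing the data), 29 or 30 without 1 library, and 30 otherwise. Over all tested genes the adult calls, 4964 higher and 4875 lower, became 5826 and 3630 (common sum), 4015 and 6210 (upper quartile) and 6735 and 2856 (centred on pan-neuronal genes). The interaction kept 28 to 30 calls and the fall within XO hermaphrodites 24 to 28. Calls lower over all tested genes ranged over 2410 to 5246 for the interaction and 2368 to 5869 within XO hermaphrodites. The median difference of all tested adult genes moved from -0.11 to 0.20 (common sum), -0.41 (upper quartile) and 0.27 (quantile normalization), and that of the flp genes from -1.82 to -1.46, -2.22 and -1.89.

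The 6 larval calls became 1 (common sum), 15 (upper quartile), 15 (centred on pan-neuronal genes), 0 (limma on the larval groups alone, with 14 members at an unadjusted p under 0.05), 0 (limma with the replicate block, with 9 such members) and 0 to 10 without 1 library, and 4 without a filter. Over all tested genes the larval calls, 185 higher and 631 lower, became 146 and 1775 (common sum), 404 and 465 (upper quartile) and 399 and 87 (centred on pan-neuronal genes). They became 1 and 2 in the larval groups alone and 0 and 1 with the replicate block. A larval fit alone has fewer libraries to estimate the spread from. The median SD was also larger in larvae (0.36 and 0.35) than in adults (0.18 and 0.20). The part of each in the loss of calls was not tested. Within XX males the 8 calls higher became 5 with the replicate block and 4 to 13 without 1 library. Over all tested genes the calls higher, 3174 in the main run, were 2883 with the block and 2884 to 3549 without 1 library. The 1 call lower became 0 with no filter, a common sum, the upper quartile, only the groups compared, no variance trend or pan-neuronal centring, where 0 or 1 members had an unadjusted p under 0.05 in limma. It became 3 with quantile normalization and ranged over 0 to 2 without 1 library. Calls lower over all tested genes, 4171 in the main run, were 5928 with quantile normalization and 3276 to 5051 without 1 library.

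In larvae replicate numbers did not pair the libraries: the deviations of same-numbered libraries from their group means correlated at -0.06, -0.05 and -0.02. In adults these correlations were 0.05, 0.30 and 0.20. Each adult library with a same-numbered partner in the other group correlated best with that partner. These numbers, also used for the block, follow the sample titles, which skip the reverted library. By the column names of the deposited values, XO hermaphrodite adult libraries 2 and 3 are numbers 3 and 4. Paired that way, they correlated with XX male adult libraries 3 and 4 at -0.21 and -0.04. The main model held no replicate term. The block left the 30 adult calls at 30.

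Signs turned only for differences that were not called, and the cause was not tested. At L3 the difference became -0.20 for flp-28 (common sum), 0.09 for flp-3 and 0.09 for flp-32 (quantile), and, centred on pan-neuronal genes, 0.20 for flp-3, 0.02 for flp-10 and 0.16 for flp-32. Without 1 library it ranged from -0.13 to 0.35 for flp-28 and from -0.66 to 0.26 for flp-32. With a common sum the interaction of flp-10 was 0.01 and the XO hermaphrodite stage difference of flp-28 was 0.07. That of flp-10 was -0.48 (upper quartile) and -0.51 (quantile). In XX males the stage difference of flp-5 became 0.00 (common sum), 0.07 (upper quartile) and 0.16 (pan-neuronal centring), where flp-12 was at 0.04. With quantile normalization flp-4 was at -0.02 and flp-19 at -0.04, and flp-19 was at -0.02 with the replicate block. Without 1 library the ranges were -0.16 to 0.30 for flp-4, -0.15 to 0.21 for flp-5, -0.07 to 0.28 for flp-18 and -0.09 to 0.39 for flp-19.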

Other observations

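The gene listed as R09A1.5 now carries the symbol flp-34 and was therefore not chosen by name. Its mean level was 12.5 ± 3.53 FPKM in XO hermaphrodite larvae, 5.43 ± 4.15 in XX male larvae and 2.18 ± 0.963 in XO hermaphrodite adults (SD, n = 3 each), and 9.73 ± 2.40 (SD, n = 4) in XX male adults, with XO hermaphrodites above XX males in larvae, where the libraries overlapped (8.42 to 15 against 1.59 to 9.83 FPKM), and below them in adults, where they did not (1.07 to 2.77 against 7.19 to 12.7).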
